A study of Mus musculus with 12 samples.

Results

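The genes of 10 transcription factors that set growth and identity in myeloid cells were followed: Myc, Mycn, Max, Myb, Gfi1, Spi1, Cebpa, Cebpb, Cebpd and Cebpe. They were picked by gene symbol, 10 of the 24589 genes of the table, and all 10 were among the 11152 genes tested, which had at least 1 TPM in at least 2 libraries. TPM is the length-corrected share of a library's transcripts that a gene takes. The source was a mouse line of acute myeloid leukemia (AML), NRAS/AE9a, named after the oncogenes NRAS and AE9a. They were labelled wild type (WT) or, by the genotype label and the series text, Tet2 knockout (KO). Both genotypes grew in RPMI medium with SCF, IL-3, IL-6, G418 and puromycin, and both received actinomycin D, which blocks transcription, at 5 µg/ml for 0, 4 or 8 h. Each of the 6 groups had 2 libraries, 12 in all. Whether the replicate libraries stem from separate cultures is not labelled, so p-values here gauge the spread of these libraries only, and that spread may be technical. No second line of either genotype is named, so genotype and line cannot be told apart.

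MYC pairs with MAX on E-box DNA and raises genes of ribosome making, translation and metabolism, while the MXD and MNT proteins compete for MAX and repress. MYB keeps immature blood cells in their progenitor state. GFI1 is a repressor of the granulocyte lineage that works with the demethylase KDM1A and RCOR1. PU.1, the product of Spi1, opens macrophage and myeloid enhancers. The C/EBP proteins share a leucine zipper and act in steps: C/EBPα starts the granulocyte programme, C/EBPε runs its late granule genes, and C/EBPβ and C/EBPδ respond to cytokines and stress. The mRNAs of many such factors are short-lived, so a block of transcription shows how fast their share is lost.

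Depth is unknown, as the files hold TPM and no counts. Libraries held 9093 to 10827 genes at 1 TPM or more, and libraries of one group correlated across genes with an r of 0.991 to 0.994, against at most 0.974 between groups. At 0 h the top 10 genes by TPM accounted for 22.0% and 17.8% of the total in WT and 13.4% in each KO library. Tet2 mRNA was lower but still present in the KO libraries, with 10.2 TPM in each at 0 h against 13.05 and 16.03 in WT (log2 change -0.47 ± 0.13, adjusted p = 0.0167). All 10 AML markers checked, among them Kit, Cd34, Mpo and Runx1, had at least 1 TPM in every group. All changes below are log2 changes of TPM + 1 with their standard error (SE), from limma with Benjamini-Hochberg adjustment over all tested genes and a threshold of 0.05. TPM are shares, so after actinomycin D a slowly lost transcript can gain TPM. In bulk RNA, fewer cells of a type and less RNA per cell cannot be told apart.

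At 0 h every one of these factors except Mycn was well expressed. In WT cells the order of the mean TPM was Spi1 (374), Cebpb (287), Cebpe (119), Myc (91.5), Myb (83.1), Max (81.7), Cebpd (66.0), Gfi1 (57.3), Cebpa (44.9) and Mycn (0.515). Myc, Myb and Max were neighbours whose libraries overlapped, and the other neighbours did not overlap. In KO cells Spi1 (276 TPM) and Cebpb (205) again led, followed by Myc (121), Myb (102), Max (79.7), Cebpe (71.7), Cebpa (71.0), Gfi1 (42.7), Cebpd (35.0) and Mycn (2.78). Of these neighbours only Cebpe and Cebpa had overlapping libraries. Cebpa thus stood below Cebpd and Gfi1 in WT cells and above both in KO cells.

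**Figure D1:**
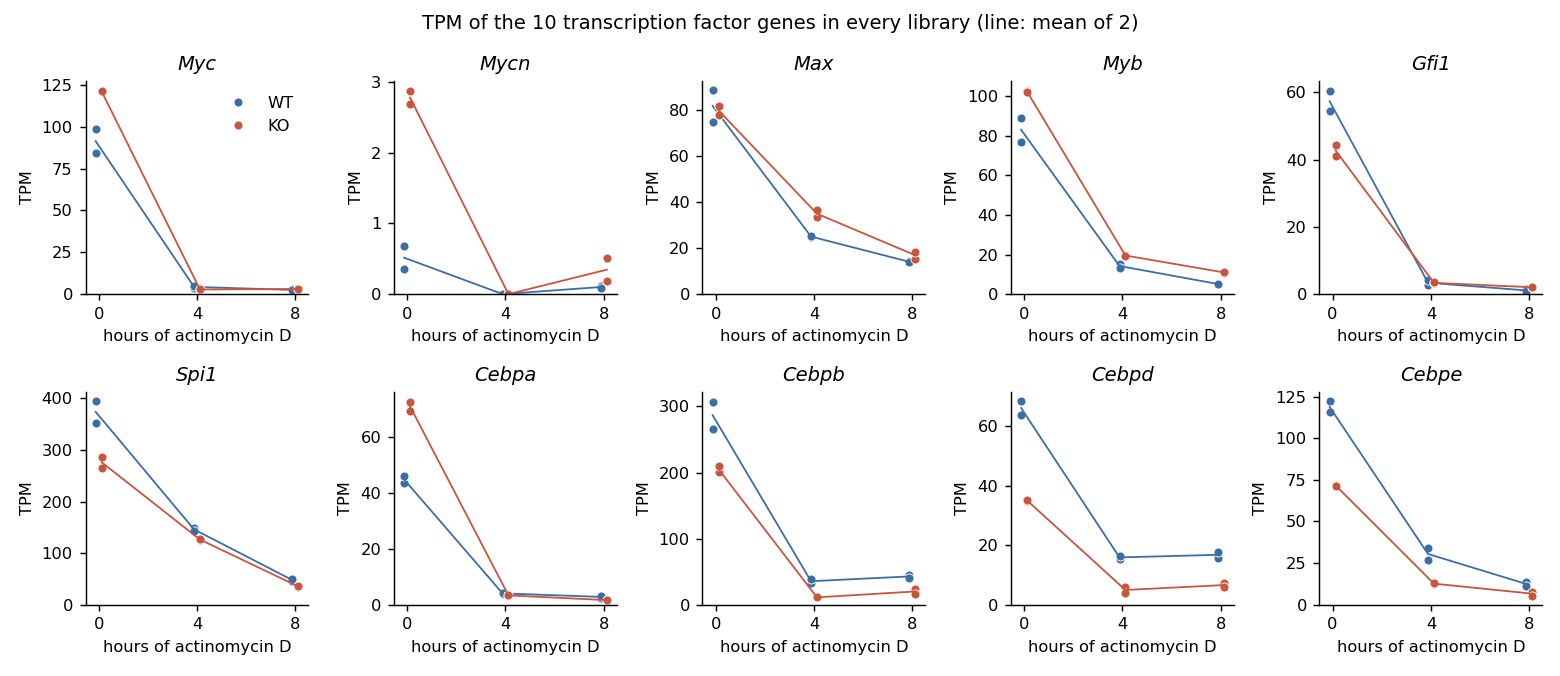
TPM of the 10 genes in each of the 12 libraries, 1 panel per gene, with hours of actinomycin D on the x axis and TPM on the y axis, WT and KO in separate colours. Points are libraries and lines join group means. Each gene is highest at 0 h, and at 0 h both KO points lie above the WT points for Myc, Myb and Cebpa and below them for Spi1, Cebpb, Cebpd and Cebpe.

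Setting KO beside WT at 0 h shows how the factors stood before transcription was blocked. MYC, MYB and C/EBPα mRNA were higher in KO cells, while PU.1, C/EBPβ, C/EBPδ and C/EBPε mRNA were lower. Of the 10 genes, 4 were called higher, where 14.3% of all tested genes were, and 4 lower, where 11.5% were. Mycn is among the former but had 1 TPM or more only in the KO libraries at 0 h, so the filter on low values let it in through the group where it was high, and its call is no support. At 0 h 62.8% of all tested genes had libraries that did not overlap between the genotypes, so the lack of overlap given for single factors is a description. The count of 8 fell to 5 without WT 0 h replicate 1, without KO 0 h replicate 1 or without KO 0 h replicate 2. Scaling to housekeeping genes turned the split of all tested genes from 1593 higher and 1278 lower to 857 and 2156, and that of the factors to 2 higher and 5 lower. Of the 29 housekeeping genes measured, 11 were themselves higher in KO at 0 h and 3 lower, with a median of 0.13. The median change of all tested genes was 0.06.

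Myc, on chromosome 15 from 61985391 to 61990374 on the plus strand (GRCm38, GENCODE M21, as for all positions here), had 84.1 and 98.8 TPM in WT and 121.2 and 121.4 in KO libraries at 0 h. Both KO libraries lay above both WT libraries. The change was 0.41 ± 0.13 (n = 2 against 2, adjusted p = 0.0425), and 9 of 14 alternative analyses lost the call, with adjusted p from 0.00369 to 0.245. It was 0.25 (adjusted p = 0.147) when libraries were scaled to housekeeping genes, and the call was lost when WT 0 h replicate 1 or 1 of the KO 0 h libraries was left out. Max, the obligate partner of MYC (chromosome 12, 76937269 to 76962201, minus strand), had 74.7 and 88.7 TPM in WT and 81.7 and 77.8 in KO. Its KO values fell inside the WT range, and its change was -0.03 ± 0.11 (adjusted p = 0.875). The ratio of Myc to Max TPM, which no scaling of a library can move, was 1.13 and 1.11 in WT and 1.48 and 1.56 in KO libraries. Mycn, the paralog of early development and neural tissue (chromosome 12, 12936093 to 12941914, minus strand), had 0.68 and 0.35 TPM in WT and 2.69 and 2.87 in KO, a change of 1.33 ± 0.17 at levels far below those of Myc.

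Myb (chromosome 10, 21124935 to 21160984, minus strand) had 77.2 and 89.1 TPM in WT and 102.9 and 102.1 in KO libraries at 0 h. Again the genotypes did not overlap. The change was 0.30 ± 0.10 (adjusted p = 0.0372), and the call was lost in 7 of 14 alternatives, with adjusted p from 0.0168 to 0.204, among them each fit without WT 0 h replicate 1, KO 0 h replicate 1 or KO 0 h replicate 2. Gfi1 (chromosome 5, 107716657 to 107726036, minus strand) had 54.3 and 60.4 TPM in WT and 41.0 and 44.4 in KO. Both KO libraries were below both WT libraries, but the change of -0.42 ± 0.17 did not pass (adjusted p = 0.102).

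Spi1 (chromosome 2, 91082390 to 91115756, plus strand) had 353 and 395 TPM in WT and 287 and 266 in KO libraries. The change was -0.43 ± 0.08 (adjusted p = 0.00146), with no overlap, and it passed in all 14 alternatives.

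Among the C/EBP genes, Cebpa moved against its relatives. It is a gene of 1 exon on chromosome 7 from 35119293 to 35121928, plus strand, and had 43.5 and 46.2 TPM in WT and 72.7 and 69.3 in KO libraries, a change of 0.65 ± 0.12 (adjusted p = 0.00146). Cebpb, also of 1 exon (chromosome 2, 167688915 to 167690418, plus strand), had 266 and 307 TPM in WT and 201 and 209 in KO. Its change was -0.48 ± 0.15 (adjusted p = 0.0342), and the call was lost without any 1 of the 4 libraries compared (adjusted p = 0.0572 to 0.192). Cebpd, likewise of 1 exon (chromosome 16, 15887286 to 15891031, plus strand), had 63.8 and 68.3 TPM in WT and 34.8 and 35.3 in KO, a change of -0.89 ± 0.14 (adjusted p = 0.000494). Cebpe, with 2 exons (chromosome 14, 54710360 to 54712174, minus strand), had 115.5 and 122.05 TPM in WT and 71.9 and 71.5 in KO, a change of -0.72 ± 0.14 (adjusted p = 0.00267). The genotypes did not overlap for these 4 genes, as for 62.8% of all genes, and Cebpa, Cebpd and Cebpe passed in all 14 alternatives. Genes on the opposite strand overlap several of the factors, and the strand setting of the counting is not known here. Tmem189 overlaps Cebpb by 908 nt and had 98.03 and 111 TPM in WT and 75.9 and 73.8 in KO libraries at 0 h, lower in KO as Cebpb was. At 4 h Tmem189 had 71.1 and 72.8 TPM in WT and 43.5 and 45.5 in KO. Those values lay above Cebpb, which had 32.9 and 38.3 in WT and 11.4 and 11.1 in KO. At 8 h Tmem189 had 76.5 and 81.6 TPM in WT and 40.1 and 45.9 in KO. Spidr overlaps Cebpd by 1808 nt and had 21.3 and 21.5 TPM in WT and 24.7 and 22.04 in KO, not lower as Cebpd was. Any part of these reads in the values of Cebpb and Cebpd was not tested. The opposite-strand genes at Cebpa, Gfi1 and Myb, and Gm47218 on the same strand within Max, were not analysed here.

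**Figure D2:**
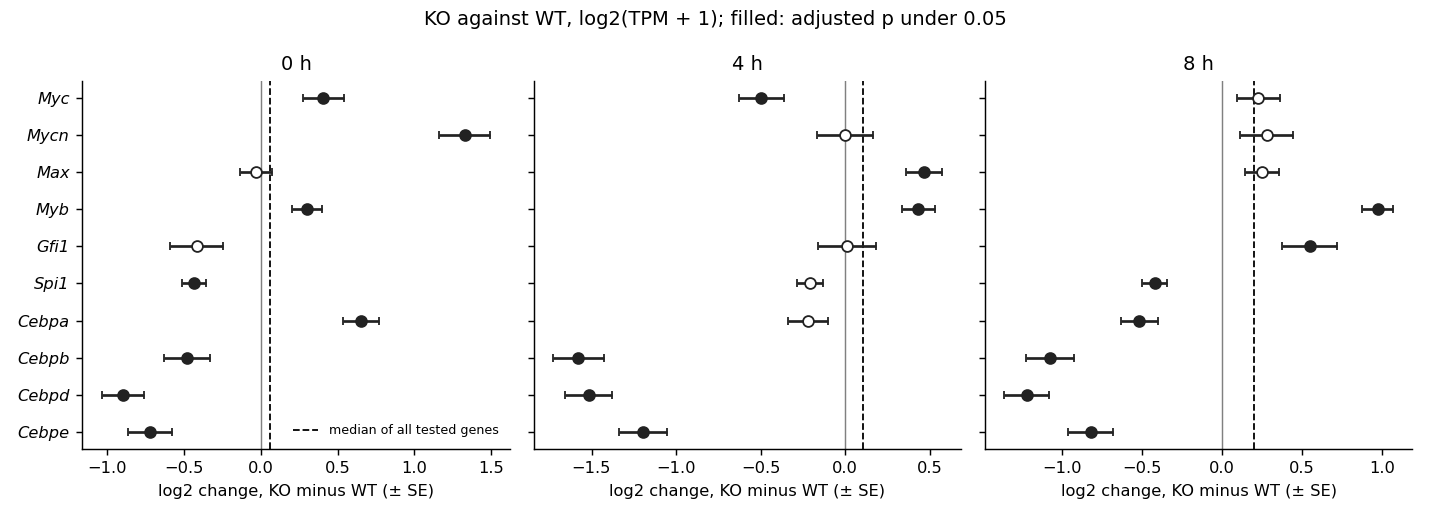
Log2 change of TPM + 1, KO against WT, of the 10 genes at 0, 4 and 8 h of actinomycin D, with bars of 1 SE, filled points for an adjusted p below the threshold of 0.05 and a dashed line at the median of all tested genes. Spi1, Cebpb, Cebpd and Cebpe lie below 0 at every time, whereas Cebpa is at 0.65 at 0 h and at -0.52 at 8 h.

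The mixture of C/EBP mRNAs therefore differed between the genotypes at 0 h. The summed TPM of the 4 genes was 489 and 544 in WT and 381 and 385 in KO libraries. Cebpa made up 8.90% and 8.50% of that sum in WT and 19.1% and 18.0% in KO, while Cebpe held 23.6% and 22.4% in WT and 18.9% and 18.6% in KO. Cebpd held 13.0% and 12.5% in WT and 9.14% and 9.15% in KO. Cebpb held 54.4% and 56.5% in WT and 52.8% and 54.3% in KO, with no overlap but only a narrow gap between the genotypes. Ratios within a library show the same order without any scaling. Cebpa over Cebpe was 0.377 and 0.379 in WT and 1.01 and 0.970 in KO, and Cebpa over Spi1 was 0.123 and 0.117 in WT and 0.253 and 0.261 in KO. These shares and ratios are descriptions of 2 libraries each and were not tested.

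**Figure D3:**
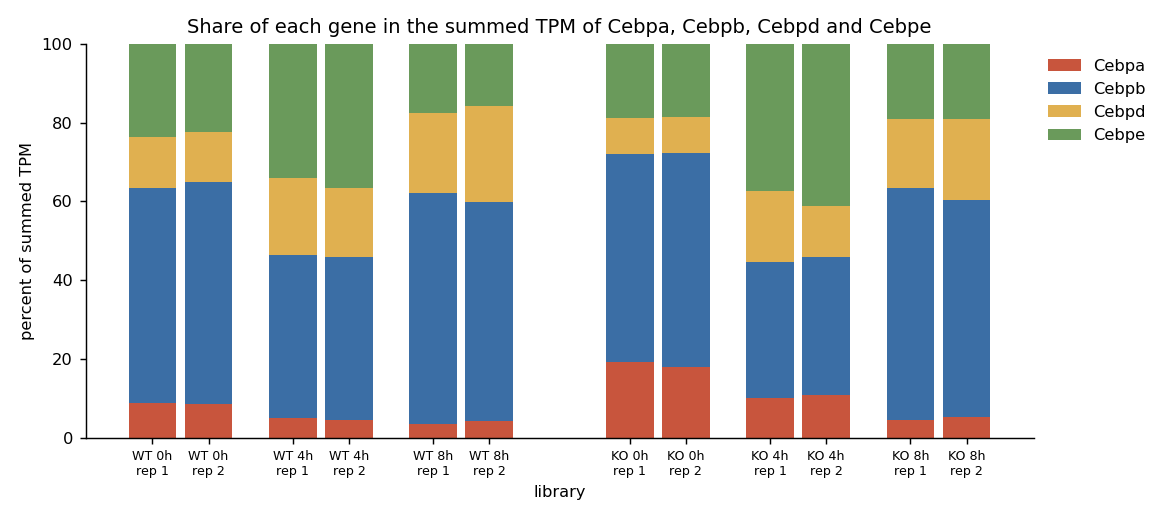
Share of each C/EBP gene, in percent, in the summed TPM of Cebpa, Cebpb, Cebpd and Cebpe, for each of the 12 libraries as 1 stacked bar. At 0 h Cebpa holds 8.90% and 8.50% in WT and 19.1% and 18.0% in KO libraries.

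Lists of partners and targets were read beside the factors, as counts and medians. The lists were chosen with earlier results of these data known, so their counts are descriptions and no independent support. Of all tested genes, 14.3% were higher in KO cells at 0 h and 11.5% lower. Of 33 measured MYC targets, 31 were higher in KO cells at 0 h and 0 lower, with a median change of 0.51 against 0.06 for all genes. Among them were Srm, a polyamine synthase (0.73 ± 0.08), the cyclin Ccnd2 (0.68 ± 0.08), the transferrin receptor Tfrc (0.66 ± 0.07) and the nucleolar protein Npm1 (0.56 ± 0.07), whose reads may be shared with pseudogene copies. Odc1 (0.22, adjusted p = 0.055) and Ppat (0.41, adjusted p = 0.077) did not pass. The count of 31 was 22 without WT 0 h replicate 1 and 24 under housekeeping scaling. Ldha and Tfrc stand in both the MYC target list and the housekeeping list, so the count under that scaling is not independent of the list. Of 10 measured genes of the MAX network, 2 were lower and 0 higher: Mxd1 (-0.95 ± 0.14) and Mxi1 (-0.60 ± 0.11), both of which encode MAX-binding repressors.

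Among the 8 measured genes of the MYB list, Mpo, the myeloperoxidase of granulocyte precursors (2.16 ± 0.12), and the survival gene Bcl2 (0.87) were higher, and Elane, neutrophil elastase (-1.67 ± 0.12), and the SCF receptor Kit (-0.81 ± 0.13) were lower. The 10 paralog and corepressor genes of GFI1 held 1 call, the erythroid and megakaryocyte paralog Gfi1b at 1.74. Of 5 C/EBP relatives, the stress factor Ddit3 (-0.56) and the pseudokinase Trib1 (-0.51), which promotes loss of C/EBPα protein, were lower. Ddit3 lost its call without WT 0 h replicate 2, KO 0 h replicate 1 or KO 0 h replicate 2 (adjusted p = 0.0664 to 0.109), and Trib1 without WT 0 h replicate 1, KO 0 h replicate 1 or KO 0 h replicate 2 (adjusted p = 0.0937 to 0.115), so each fit with 1 library left out held at most 1 of these calls.

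Of 15 granulocyte genes listed as C/EBP targets, 13 were lower and 1, Mpo, was higher, with a median of -0.95. The granule peptide Camp changed by -3.48, the granule protein Ngp by -2.33 and lysozyme Lyz2 by -1.38. Of 19 PU.1 targets, 16 were lower and 1 higher, also with a median of -0.95. They included the GM-CSF receptor chain Csf2ra (-2.41), the lysosomal protease Ctss (-1.63), the macrophage perforin Mpeg1 (-1.63) and the M-CSF receptor Csf1r (-1.41), whereas the macrophage receptor Adgre1 was higher (0.32). Of 26 other hematopoietic factors, 7 were higher, such as Gata2 (1.35), Tal1 (0.94) and Id1 (0.65), and 6 were lower, such as Id2 (-0.63). The lists overlap, since Mpo stands in several.

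**Figure D4:**
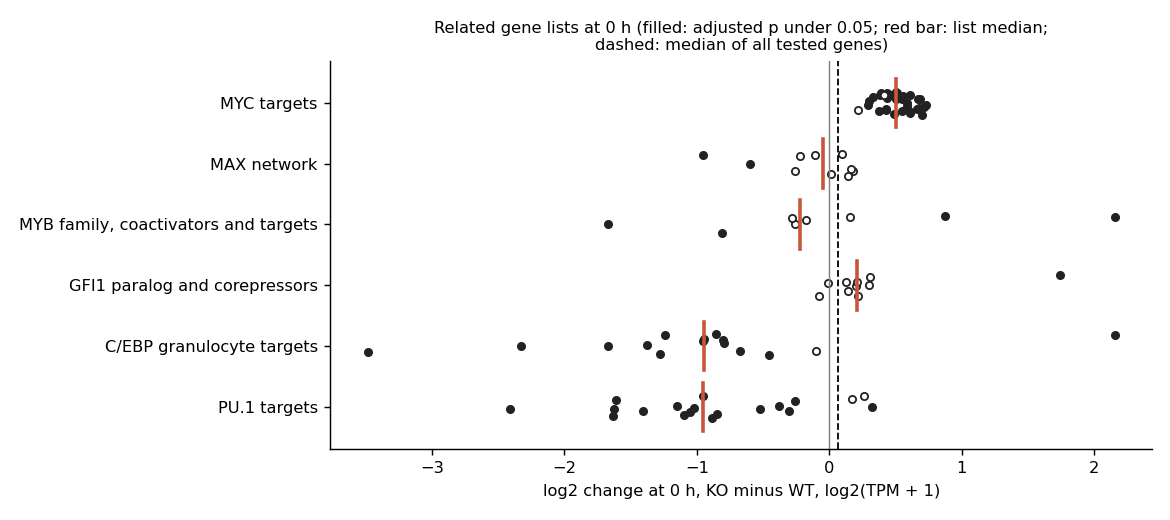
Log2 change of TPM + 1, KO against WT at 0 h, of every measured gene of 6 lists, 1 row per list, with 1 point per gene (filled below the adjusted p threshold), a bar at the list median and a dashed line at the median of all tested genes. The MYC targets lie between 0.22 and 0.73, and the PU.1 and C/EBP target lists have medians of -0.95.

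Markers of other blood lineages moved with genotype at 0 h. The summed TPM of the mast cell and basophil markers was 1126 and 1248 in WT and 3515 and 3331 in KO libraries. Of its 10 tested genes 4 were higher and 5 lower in KO, with a median of -0.50. The carboxypeptidase Cpa3 (1.71) was higher and carried most of the sum, while the proteases Cma1 (-3.21) and Tpsb2 (-2.15) were lower. Mcpt1 was at 0 in both genotypes, and Mcpt2, Mcpt4 and Tpsab1 were at 0 in KO. The erythroid markers summed to 120 and 142 in WT and 422 and 421 in KO, of which 3 of 4 tested were higher, with Alas2, Ermap, Hba-a2, Hbb-bs and Slc4a1 at 0 in both genotypes. Megakaryocyte markers summed to 85.3 and 86.7 in WT and 147 and 125 in KO. Of 7 tested, 3 were higher and 0 lower. Higher were Itga2b (2.13), Itgb3 (1.06) and Ppbp (1.01). Gp1ba (0.54), Pf4 (0.26), Vwf (-0.28) and Treml1 (-0.44) did not pass. The part of these lineage markers in the differences of the factors and lists was not tested. T and NK cell markers summed to 23.8 and 20.8 TPM in WT and 23.2 and 32.6 in KO, with Cd3d, Cd3e, Cd3g, Cd4, Cd8b1 and Ncr1 at 0. Of the 2 tested, Nkg7 was higher (1.28) and Il7r lower (-1.70) in KO. No B cell marker reached 1 TPM in either genotype.

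Actinomycin D lowered the share of all 10 factors in both genotypes. Each of the 10 was called lower at 4 h and at 8 h in WT, where 71.0% and 80.2% of all tested genes were, and in KO, where 68.0% and 75.4% were. With shares this large for all genes, the calls alone say little of the factors, and the size of the loss sets them apart from each other. The median change of all genes was -0.81 at 4 h and -1.40 at 8 h in WT, and -0.70 and -1.16 in KO.

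**Figure D5:**
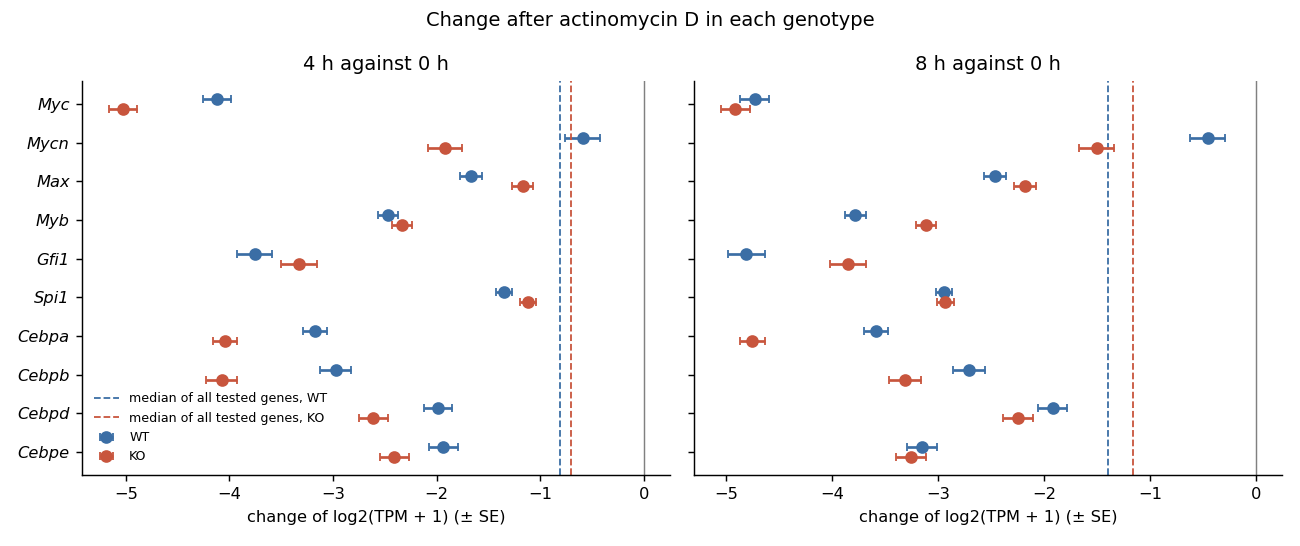
Log2 change of TPM + 1 from 0 h to 4 h and 8 h of actinomycin D for each of the 10 genes, WT and KO in separate colours, with bars of 1 SE and lines at the median change of all tested genes. Myc reaches -4.12 in WT and -5.03 in KO at 4 h, while Spi1 reaches -1.35 and -1.12.

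Apart from Mycn, Myc had the least of its 0 h share left at 4 h in both genotypes. In WT it went to 3.74 and 4.90 TPM at 4 h, then 2.77 and 2.19 at 8 h. In KO it went to 2.75 in each library at 4 h, then 3.01 and 3.10. That left 4.72% of the 0 h mean at 4 h in WT and 2.27% in KO. The changes at 4 h were -4.12 ± 0.13 in WT (adjusted p = 8.24e-10) and -5.03 ± 0.13 in KO (adjusted p = 1.46e-10), and 0.0448% and 0.00897% of tested genes had a lower change. At 8 h 2.71% was left in WT, where Gfi1 had less, and 2.52% in KO, where Cebpa had less. Max, whose protein is known to be stable and to be made whether or not MYC is present, went to 24.9 and 25.02 TPM at 4 h, then 14.2 and 13.8 at 8 h, in WT, and to 33.3 and 36.5 and then 15.4 and 18.3 in KO. Its share at 4 h was 30.6% of the 0 h mean in WT and 43.8% in KO. Mycn was listed at 0 in all 4 libraries at 4 h and at 0.09 to 0.51 TPM at 8 h.

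Gfi1 and Cebpa came next after Myc at 4 h in WT cells, and Cebpa and Cebpb in KO cells. Gfi1 had 2.64 and 4.10 TPM at 4 h, then 1.38 and 0.81 at 8 h, in WT, and 3.21 and 3.47 and then 2.02 and 2.04 in KO, so 1.91% of the 0 h mean was left at 8 h in WT and 4.75% in KO. Cebpa had 3.93 and 4.26 TPM at 4 h, then 2.59 and 3.06 at 8 h, in WT, and 3.35 and 3.40 and then 1.80 and 1.54 in KO, with 6.30% left at 8 h in WT and 2.35% in KO. The 2 genes thus ended in opposite orders, with more Gfi1 and less Cebpa left in KO cells. Myb was lost more slowly, with 15.07 and 13.4 TPM at 4 h, then 5.17 and 5.04 at 8 h, in WT, and 19.8 and 19.3 and then 10.9 and 11.07 in KO. Both KO libraries exceeded both WT libraries at each time.

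Spi1 had the largest share of the 10 left at 4 h. It had 149 and 143 TPM at 4 h, then 45.7 and 49.9 at 8 h, in WT, and 125 and 128 and then 34.4 and 36.4 in KO libraries. At 4 h 39.1% of the 0 h mean was left in WT and 45.8% in KO, and at 8 h 12.8% in each genotype. From 4 h to 8 h it changed by -1.59 ± 0.08 in WT (adjusted p = 1.41e-08) and -1.81 ± 0.08 in KO, lower than all but 3.12% and 1.03% of tested genes, although at 4 h 29.9% and 34.9% of genes had a lower change than Spi1. Scaled to housekeeping genes, the WT changes were -1.57 over the first 4 h and -1.31 from 4 h to 8 h.

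Cebpb and Cebpd fell by 4 h and then kept or regained share. Cebpb had 32.9 and 38.3 TPM at 4 h, then 45.3 and 40.5 at 8 h, in WT, and 11.4 and 11.1 and then 24.2 and 16.1 in KO libraries. Both genotypes were higher at 8 h than at 4 h in each library, but only the KO change passed, at 0.76 ± 0.15 (adjusted p = 0.000994), against 0.26 ± 0.15 in WT (adjusted p = 0.148). Any part of the reads of the overlapping Tmem189 in these values of Cebpb was not tested. Cebpd had 15.5 and 16.3 TPM at 4 h, then 15.9 and 17.7 at 8 h, in WT, which overlap, and 5.88 and 4.06 and then 7.17 and 6.06 in KO, a change of 0.36 ± 0.14 (adjusted p = 0.0428). The Cebpd call was lost without KO 4 h replicate 2 (adjusted p = 0.431) or KO 8 h replicate 1 (adjusted p = 0.229). With libraries scaled by median ratios, which sets the typical gene to no change, Cebpb rose from 4 h to 8 h in WT too (0.94, adjusted p = 0.000695). Between 4 h and 8 h, 7 of the 10 factors were called lower in WT, where 54.8% of all genes were. In KO 6 were lower and 2 higher, where 43.1% and 8.97% of all genes were. With median-ratio scaling 2 factors were higher and 4 lower in WT, and 4 higher and 4 lower in KO. All genes then split into 3219 higher and 2506 lower in WT, in place of 769 and 6115, and 3208 and 2323 in KO, in place of 1000 and 4812. Scaled to housekeeping genes, 2 factors were higher and 6 lower in WT, and 1 higher and 6 lower in KO. All tested genes then had a median change of -0.22 in WT and -0.33 in KO. Their share of calls under that scaling is not given here, so these counts are descriptions.

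Cebpe, the factor of late granulocytes, had 27.2 and 33.9 TPM at 4 h, then 13.5 and 11.5 at 8 h, in WT, and 12.4 and 13.0 and then 7.80 and 5.55 in KO libraries. Its loss went on to 8 h, with 25.7% of the 0 h mean left at 4 h in WT and 17.7% in KO, and 10.5% and 9.31% at 8 h. The summed C/EBP TPM was 79.5 and 92.8 in WT and 33.0 and 31.5 in KO at 4 h, so that the KO sum was far below the WT sum.

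Relative to the typical gene the calls were fewer. With median-ratio scaling, 4201 of all tested genes were higher and 4588 lower at 8 h in WT, in place of 946 and 8944, and in KO 4319 and 4537, in place of 1064 and 8405. Of the factors 9 of the 10 were lower at 4 h and 8 at 8 h in WT, and all 10 at both times in KO. At 4 h the share of all genes called with that scaling is not given here. Their median change was 0.006 in WT and 0.05 in KO. Cebpd at 8 h in WT was among those lost (-0.28, adjusted p = 0.0663), as was Mycn. Scaled to housekeeping genes, all 10 were lower at both times in both genotypes.

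The sequence element best known for fast mRNA decay, the AU-rich pentamer ATTTA in the 3′ untranslated region (UTR), was read from the GENCODE M21 transcripts on the sense strand, in 1 transcript per gene. It was also looked for as the longer form TATTTAT, which contains it. The windows below hold up to 10 bases on each side of the element, in capitals, for Myc and Gfi1, for Max, the partner of MYC, and for Cebpd, the C/EBP gene with the most copies.
Myc site 1: acagatttgtATTTAattgtttttt
Myc site 2: aattttttttATTTAaagacatttt
Gfi1 site 1: ccactgatgcATTTAttgagaacga
Gfi1 site 2: agcataatcaTATTTATtagaatgttg
Max site 1: gatgttttgaTATTTATttcctgctac
Cebpd long form: gttggacattTATTTATtgtaacagaa

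Myc held 2 copies in a 3′ UTR of 442 nt, and 45.1% of genes whose 3′ UTR was within 20% of that length held any. Myb held 5 in 1238 nt, Gfi1 2 in 1074 nt, Cebpd 7 in 2900 nt, and Max and Mycn 1 each. Of genes of like length, 81.0% held any for Myb, 76.1% for Gfi1, 96.0% for Cebpd, 81.6% for Max and 70.8% for Mycn. Their median count was 2 for Myb, 1 for Gfi1 and 5 for Cebpd. Spi1, Cebpa, Cebpb and Cebpe held none. Cebpa has 1430 nt, a length at which 83.6% of genes held at least 1. That share was 38.4% for Spi1, 50.5% for Cebpb and 26.1% for Cebpe. Of the 10488 matched genes 65.5% held ATTTA and 26.9% TATTTAT. At like length TATTTAT was held by 25.6% of genes for Gfi1, 29.9% for Max and 51.0% for Cebpd. Per 1000 nt of 3′ UTR, Myc held 4.52 copies, Myb 4.04, Cebpd 2.41, Gfi1 1.86, Mycn 1.10 and Max 0.77, against a median of 1.21 over the matched genes. Whether the copies go with the loss was not tested. A match is a description of letters, and the authors' annotation may differ.

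At 4 h of actinomycin D, KO cells had less Cebpb, Cebpd and Cebpe mRNA and more Max and Myb than WT cells. Of the 10 factors 2 were higher, where 24.9% of all genes were, and 4 lower, where 13.7% were. Cebpb, with 11.4 and 11.1 TPM in KO against 32.9 and 38.3 in WT, changed by -1.58 ± 0.15 (adjusted p = 1.07e-05). Cebpd changed by -1.52 ± 0.14 (adjusted p = 7.53e-06) and Cebpe by -1.20 ± 0.14 (adjusted p = 5.76e-05), and all 3 passed in all 14 alternatives. Myc was lower in KO by -0.50 ± 0.13 (adjusted p = 0.0121), a call lost without WT 4 h replicate 2 (adjusted p = 0.129) or 1 of the KO 4 h libraries. Max (0.47 ± 0.11, adjusted p = 0.00438) and Myb (0.43 ± 0.10, adjusted p = 0.00408) were higher. Spi1 (-0.21 ± 0.08, adjusted p = 0.0533), Cebpa (-0.22 ± 0.12, adjusted p = 0.158) and Gfi1 (0.01, adjusted p = 0.971) did not pass. Spi1 and Cebpa passed as lower under median-ratio scaling (adjusted p = 0.00153 and 0.0313) and under housekeeping scaling (adjusted p = 0.00516 and 0.0454). With each scaling 6 factors were thus lower and 2 higher, and Gfi1 turned to -0.065 and -0.070. The median change of all tested genes was then 0.03 and 0.02. The share of all genes called under these scalings is not given here, so the counts of factors are descriptions.

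At 8 h all 4 C/EBP genes and Spi1 were lower in KO, and Myb stood higher. At this time 2 factors were higher, where 37.3% of all genes were, and 5 lower, where 12.1% were. Myb, at 10.9 and 11.07 TPM in KO against 5.17 and 5.04 in WT, changed by 0.97 ± 0.10 (adjusted p = 5.39e-06), against a median of 0.20 for all genes. Gfi1 changed by 0.55 ± 0.17 (adjusted p = 0.0194), which was lost in 6 of 14 alternatives with adjusted p from 0.00772 to 0.228, including the fits that left out WT 8 h replicate 2 or 1 of the KO 8 h libraries. Lower were Cebpd (-1.22 ± 0.14), Cebpb (-1.08 ± 0.15), Cebpe (-0.82 ± 0.14), Cebpa (-0.52 ± 0.12, adjusted p = 0.00279) and Spi1 (-0.42 ± 0.08, adjusted p = 0.000664). Myc (0.23, adjusted p = 0.189) and Max (0.25, adjusted p = 0.0694) did not pass, and both turned negative under housekeeping scaling, at -0.13 and -0.20. That scaling also turned the split of all genes from 4161 higher and 1350 lower to 1632 and 3463. Of the 29 housekeeping genes measured, 23 were themselves higher in KO at 8 h and 4 lower, with a median of 0.44. Scaling to them thus lowers KO values against WT and is no neutral check.

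Whether the loss itself differed between genotypes was tested as the difference of the changes, KO minus WT. Over 8 h, Cebpa lost more in KO cells, by -1.17 ± 0.17 (adjusted p = 0.000941), and Myb and Gfi1 lost less, by 0.67 ± 0.14 (adjusted p = 0.00602) and 0.96 ± 0.24 (adjusted p = 0.0167). With Mycn (-1.05 ± 0.23, adjusted p = 0.00933), which passed the filter on low values only through its KO level at 0 h, so that its difference is no support, 2 of the 10 were lower and 2 higher, where 2.63% and 17.3% of all genes were. Under median-ratio scaling 1 factor was higher and 4 lower, since Cebpb (adjusted p = 0.0251) and Cebpd (adjusted p = 0.0410) passed and Mycn (adjusted p = 0.0942) and Gfi1 did not, and all genes split into 999 higher and 879 lower, in place of 1929 and 293. Under housekeeping scaling 2 were higher and 3 lower, with Cebpb among them (adjusted p = 0.0152), and all genes split into 648 and 825. Of the 29 housekeeping genes themselves, 12 had a higher 8 h difference and 2 a lower one without scaling. Cebpa and Myb passed in all 18 alternatives. Gfi1 missed the threshold under median-ratio scaling (0.88, adjusted p = 0.0614) or without WT 0 h replicate 2 (adjusted p = 0.0726) or KO 0 h replicate 1 (adjusted p = 0.0672). Spi1, at 0.01 (adjusted p = 0.954), was lost to the same 12.8% in both, though it became -0.25 (adjusted p = 0.0456) under median-ratio scaling. The opposite genotype order of Cebpa at 0 h and at 8 h is thus a difference that passed its own test.

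Over 4 h only Mycn passed, at -1.33 ± 0.23 (adjusted p = 0.0386), where 0.296% of all genes were lower, and its 0 h level sets that difference since all libraries at 4 h are at 0. The differences of Cebpb (-1.10 ± 0.21, adjusted p = 0.0551), Cebpa (-0.87 ± 0.17, adjusted p = 0.0515) and Myc (-0.90 ± 0.19, adjusted p = 0.0727) were of similar size but missed the threshold. They passed in 5, 6 and 2 of 18 alternatives.

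The targets did not move as 1 block after the drug. Of all tested genes, 80.2% were called lower in WT at 8 h and 8.48% higher. With a share this large, counts of genes called lower say little of a list. In WT at 8 h all 33 MYC targets were lower, with a median of -1.88 against -1.40 for all genes, among them Nop58 (-3.43), Eif4e (-3.31), Nop56 (-2.84) and Srm (-2.42). With median-ratio scaling 14 of them were higher and 17 lower. In KO 29 were lower and 0 higher (median -1.18), where 75.4% and 9.54% of all genes were. The 8 h difference between genotypes was positive in 20 of 33 and negative in 0 at the threshold, where 17.3% and 2.63% of all genes were. Of the 19 PU.1 targets 9 were higher and 8 lower in WT at 8 h (median 0.14), such as Ctss (1.98) and Tlr4 (-2.39), and 16 were higher and 2 lower with median-ratio scaling. Of the 15 C/EBP granulocyte targets 2 were higher and 11 lower (median -0.83), or 8 and 5 with that scaling. The partners of GFI1 were lower in 10 of 10, for instance Kdm1a (-2.85) and Rcor1 (-3.03), or 3 higher and 6 lower with that scaling. All 5 C/EBP relatives were lower, for instance Cebpz (-3.69) and Cebpg (-3.25), or 2 higher and 3 lower with that scaling. The MAX network had 10 of 10 lower (median -1.85), or 2 higher and 5 lower. All 8 genes of the MYB list were lower (median -2.85), or 6 with that scaling, and 23 of 26 other hematopoietic factors were lower (median -2.60), or 4 higher and 18 lower. Scaled to housekeeping genes, these lists kept their counts within 1.

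The genes most like each factor over the 12 libraries were found by the root mean square difference of centred log2 values, which is small when 2 genes move alike. For Myc these were Cited2 (0.29) and Irf2bp1 (0.33), and for Max Phf14 (0.077) and Abcf3 (0.090). Myb was closest to Ubash3a (0.13) and Wdr43 (0.13), and Gfi1 to Rab9 (0.24) and Nup62 (0.25). Spi1 lay next to Hpcal1 (0.10) and Hif1a (0.18). Among the C/EBP genes, Cebpa was closest to Phax (0.21) and B3gnt2 (0.23), Cebpb to the phosphatase Dusp6 (0.20) and Slfn2 (0.27), Cebpd to the antiproliferative Btg1 (0.20) and the kinase Sgk1 (0.21), and Cebpe to B4galt6 (0.26) and Rflnb (0.27).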

How the data were processed

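The authors deposited 1 table of TPM per gene for the 12 libraries. Per the labels' protocols, a stranded mRNA kit was used on TRIzol RNA. STAR, RSEM and mm10 are named in the submitters' processing notes; versions, annotation and strand setting: not given in the sources used here. TPM were taken as log2(TPM + 1), which understates changes of low genes. All 12 libraries entered 1 limma fit (3.58.1, R 4.3.3) with a mean for each group, 6 residual degrees of freedom, an expression trend and Benjamini-Hochberg adjustment over 11152 genes. The 27 genes whose names had become dates (19 tested) stayed in the fit. Named genes are the 10 factors, the 4 with the smallest p of each list at 0 h and in WT at 8 h, and the 2 most alike genes of each factor, all with a mean of at least 5 TPM; Gfi1b, Bcl2, Adgre1, Odc1, Ppat and any other list gene were chosen after their values were seen. The members and lists were chosen with earlier results of these data known. On simulated data, 91 of 100 genes changed 2-fold and 100 of 100 changed 4-fold were recovered, with 15 false calls among 11152 genes. Alternatives were median-ratio and housekeeping scaling, other filters and pseudocounts, no trend, a robust spread, the replicate block, the compared groups alone and each library left out.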

Additional observations from a re-analysis of the deposited data

Results flagged for a closer look

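These results differed between the genotypes in the test of the difference of the actinomycin D change, KO minus WT. Mycn had a difference of -1.33 ± 0.23 over 4 h and -1.05 ± 0.23 over 8 h, from 0 h levels of 0.68 and 0.35 TPM in WT and 2.69 and 2.87 in KO libraries. It passed the filter on low values only through the KO libraries at 0 h, so its 0 h level sets both differences and they are given as a description. The 4 h call of Mycn was lost in 10 of 17 alternatives and the 8 h call in 2 of 17. Cebpa differed by -1.17 ± 0.17 over 8 h, Myb by 0.67 ± 0.14 and Gfi1 by 0.96 ± 0.24. The cause was not tested.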

How the results depend on the processing

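Of 1609 values of single factors under an alternative, 1476 kept direction and side of the threshold, 75 lost the call, 38 gained it and 20 reversed. The count of factors called at 0 h, 8, was 5 with a pseudocount of 0.1 and 5 to 7 with 1 library left out. For the 4 h difference between genotypes the count of 1 became 3 under median-ratio or housekeeping scaling, 2 at a mean of at least 5 TPM, 0 with pseudocounts of 0.1 or 0.5, 2 without the trend, 3 with a robust spread, 4 with the compared groups only and 0 to 1 with 1 library left out. Over all genes that difference had 39 calls, 160 and 110 under the scalings, 65 with a robust spread, 93 with the compared groups only and 10 to 98 with 1 library left out, and the 8 h difference had 2222, 1473 under housekeeping scaling and 1214 to 2751 with 1 library left out. At 0 h all-gene calls fell from 2871 to 1710 without KO 0 h replicate 2 and 1733 without KO 0 h replicate 1. Under median-ratio scaling the reversed values were Gfi1 at 4 h (-0.065), Max at 8 h (-0.013), Cebpa from 4 to 8 h in WT (0.12) and the Spi1 8 h difference (-0.25); under housekeeping scaling they were Gfi1 at 4 h (-0.070), Myc (-0.13) and Max (-0.20) at 8 h, and the 8 h differences of Max (-0.017) and Spi1 (-0.30). With 1 library left out the sign also turned within these ranges: Max at 0 h (-0.15 to 0.093), Gfi1 at 4 h (-0.23 to 0.25), Cebpd from 4 to 8 h in WT (-0.00212 to 0.14), and the 8 h differences of Spi1 (-0.069 to 0.092) and Cebpe (-0.32 to 0.11). The cause was not tested.

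With the replicate block, 6 factors were called at 0 h: Myc (adjusted p = 0.0514) and Myb (adjusted p = 0.0513) missed the threshold, as did Cebpd from 4 to 8 h in KO (adjusted p = 0.0506). Deviations of same-numbered libraries correlated at -0.0834 to 0.0505, so the numbers were not taken to pair libraries. Depth is unknown, so counting error could not be given for low values such as those of Mycn.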
